A study of Mus musculus with 8 samples.

Results

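The neuronal lineage genes, Dlx1, Dlx2, Tubb3, Dcx, Stmn2, Nefl, Gap43, Scg3, Nsg2 and Nptx1 (10 in all) were followed across 8 RNA sequencing libraries of mouse brain neural progenitor cells. They were taken by symbol, and each of the 10 matched exactly 1 of the 20793 rows of the expression table. The cells came from mice of the strain given as FvB/C57BL/6. Libraries were labelled as FUBP1 (a factor that binds nucleic acids and acts on transcription and splicing), as CIC (a transcriptional repressor) or as non-targeted (NT). The protocol describes lentiviral hairpins for FUBP1 with 3 days of puromycin and does not describe those of the other libraries. In the proliferating state they grew in N2 medium with EGF and bFGF at 20 ng/ml. In the differentiating state they were held in neurobasal medium with B27 for 5 days. The proliferating libraries were TRC and GFP (both NT), FUBP1 and CIC. The differentiating ones were 7 and GFP-D (both NT), FUBP1-D and CIC-D. Each targeted gene thus had 1 library in each state, and age, sex and number of animals were not given in the sources used here.

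The 2 NT libraries of a state bear different names, and nothing says that they were separate cultures, so the p-values rest on a spread among libraries that may be technical only. All values are FPKM (a level scaled to transcript length and to the fragments sequenced). The absolute depth is unknown. Steps between low values were estimated as the most frequent ratio to TRC among values up to 0.2 FPKM. They were 0.934 to 1.04 times as large in the other proliferating libraries and 1.18 to 1.32 times in the differentiating ones. Low values thus appear coarser there, though only 8.68% (CIC-D) to 20.1% (FUBP1) of the rows compared lay within 5% of that ratio. Fubp1 was lowest in an NT library (12.4 FPKM in GFP, against 34.8 in the library labelled FUBP1 and 50.2 in TRC), so the FUBP1 arm is named by its label only. In the differentiating state Fubp1 was lowest in FUBP1-D (21.6 FPKM, against 24.8 to 26.9 in the others). Cic was at 13.3 FPKM in CIC and 25.6 in CIC-D, below all 4 NT libraries (33.8 to 42.0). It was below them in FUBP1-D too (32.1 FPKM), but not in FUBP1 (49.5 FPKM).

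A progenitor that takes the neuronal path first switches on fate transcription factors, among them the Dlx homeodomain proteins of the ventral forebrain. Young neurons then build a specialised cytoskeleton from class III beta-tubulin, doublecortin, stathmin 2 and neurofilaments, and extend growth cones rich in GAP43. Maturing neurons add the machinery of regulated secretion and the synapse, which includes secretogranins, endosomal sorting proteins such as NSG2, and secreted pentraxins.

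Promoter sequences were available for 6 of the 10 members (Dlx1, Dlx2, Tubb3, Dcx, Scg3 and Nsg2), from RefSeq on build GRCm38.p6. The 250 bases before the start sites of Nsg2 and Scg3 are shown because these were the members with the largest increases in the differentiating libraries. The Nsg2 window (first of its 2 start sites) is chr11:32000169-32000418 on the plus strand, and the Scg3 window is chr9:75684057-75684306 on the minus strand. Both are written 5′ to 3′ along the gene, with motif matches in capitals.
Nsg2: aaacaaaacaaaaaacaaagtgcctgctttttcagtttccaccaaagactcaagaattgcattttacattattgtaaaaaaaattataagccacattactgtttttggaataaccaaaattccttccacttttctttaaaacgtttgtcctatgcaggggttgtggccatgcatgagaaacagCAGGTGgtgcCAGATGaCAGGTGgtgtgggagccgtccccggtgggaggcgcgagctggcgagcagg
Scg3: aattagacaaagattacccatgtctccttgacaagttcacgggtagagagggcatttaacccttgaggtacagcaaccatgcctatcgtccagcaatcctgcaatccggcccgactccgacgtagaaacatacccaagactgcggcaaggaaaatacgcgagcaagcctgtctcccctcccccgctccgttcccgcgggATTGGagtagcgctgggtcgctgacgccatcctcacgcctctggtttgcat
The letter patterns searched on both strands were the E-box CANNTG bound by basic helix-loop-helix factors, the homeodomain core TAATTA, the TATA box TATAAA, the CCAAT box CCAAT, and AGCACC and GGACAG, taken from the left and right parts of the RE1 element bound by the repressor REST. The Nsg2 window held 3 E-boxes, which start 67, 57 and 50 bases before the start site, and the Scg3 window held 1 CCAAT box on the minus strand, 51 bases before it. Of 32851 promoter windows of this length, 66.2% held at least 1 E-box, 12.2% held 3 or more, and 33.9% held a CCAAT box. AGCACC was in 13.4% of all windows and GGACAG in 18.7%. Neither printed window held them, whereas the windows of the second Nsg2 start site and of Tubb3 held AGCACC, with 2 matches and 1 match. In Tubb3 an annotated exon of the gene begins after 121 bases of the window, and the match starts at base 130. In the second Nsg2 window an exon begins after 13 bases, and the matches start at bases 53 and 184. They thus lie past the part upstream of the annotated gene, unlike those in the printed windows. All matches named here describe letters only.

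The members did not share 1 pattern. Between the states, Nsg2 and Scg3 rose and Nptx1 and Gap43 fell. Tubb3 was called higher and Dlx1 lower, but each passed the filter on low values only through the state where it was high, and both calls were lost under several alternatives. Nefl and Stmn2 did not pass the test, and Dlx2 and Dcx were too low to be tested. Levels spanned a wide range: at their highest, Nefl reached 537 FPKM, Nptx1 256 and Gap43 250.5, whereas Dcx never exceeded 0.0752 FPKM. The state test was limma on log2(FPKM + 1) with state and targeted gene as additive terms, over the 11968 rows that reached 1 FPKM in at least 2 libraries. An adjusted p under 0.05 counted as a call, and fold changes on this scale understate those of low genes. It called 3 of the 8 tested members higher (Tubb3 among them) and 3 lower (Dlx1 among them), against 21.2% and 17.7% of all tested rows (38.8% in either direction). The states did not overlap in 2 members that were higher (Nsg2 and Tubb3) and 2 that were lower (Nptx1 and Dlx1), against 20.1% and 17.8% of rows (38% in either direction). In bulk libraries, fewer cells of a type and less RNA per cell cannot be told apart. Each SD below spans the 4 libraries of a state, and so 3 target labels.

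**Figure D1:**
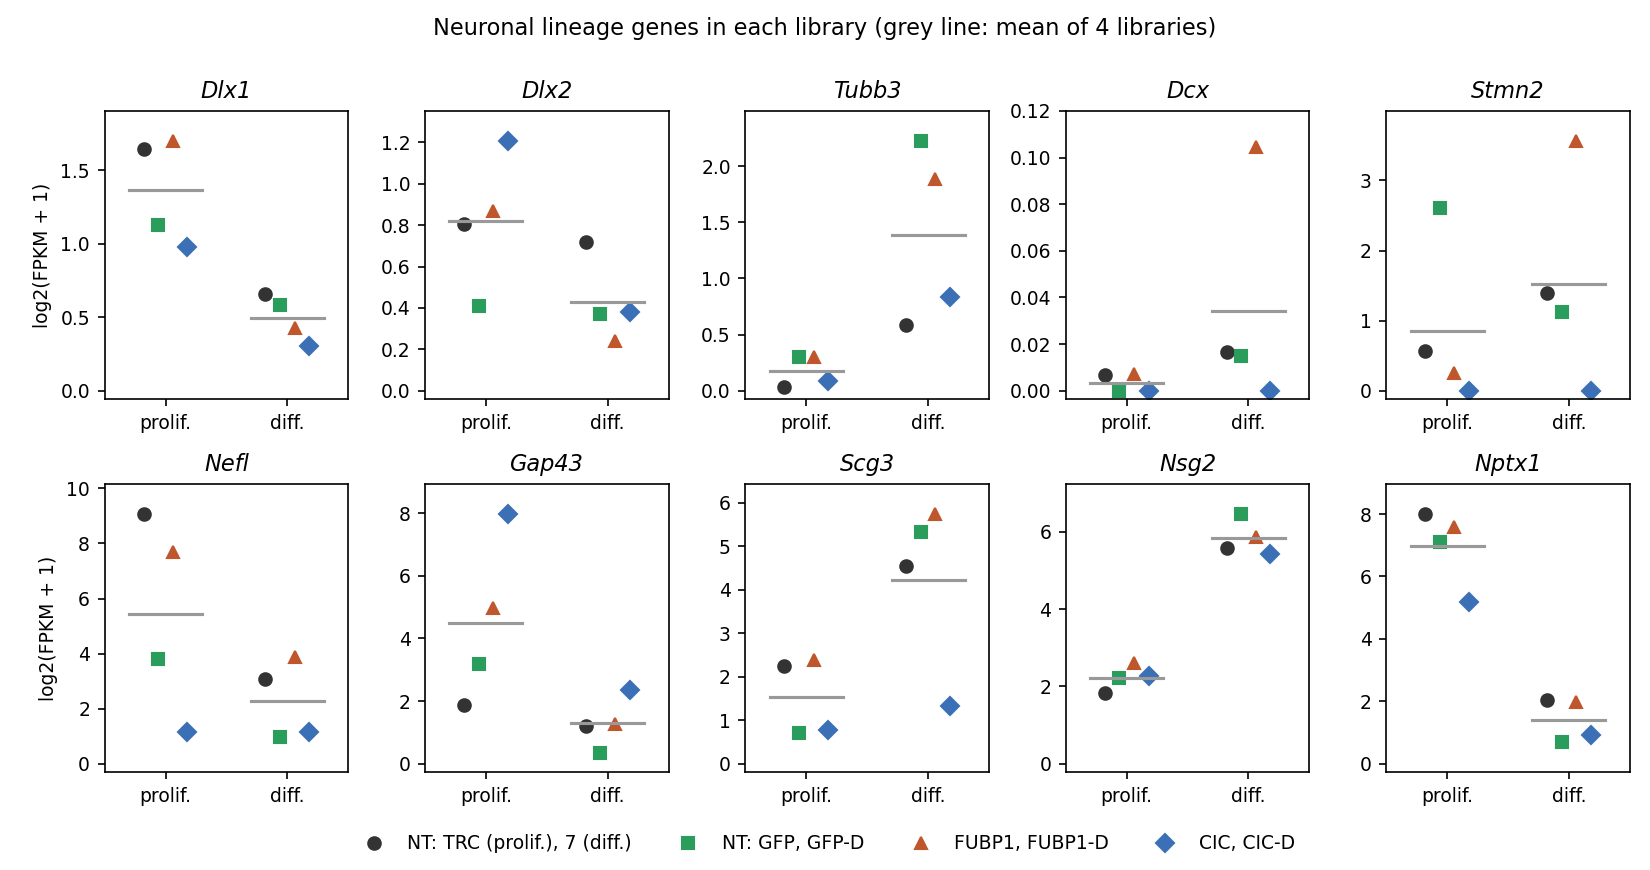
Levels of the 10 genes in each library as log2(FPKM + 1), with the 4 proliferating libraries on the left of each panel, the 4 differentiating ones on the right and grey lines at the means. Nsg2 lay at 2.53 to 5.10 FPKM in the proliferating and 42.1 to 87.0 FPKM in the differentiating libraries, while Dcx stayed at or below 0.0752 FPKM in all 8.

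The fate factors Dlx1 and Dlx2, homeodomain proteins that specify GABAergic interneurons, were scarce in every library. Dlx1 (chromosome 2, 71367502 to 71372037, mm9) was at 2.13 FPKM in TRC, 1.19 in GFP, 2.25 in FUBP1 and 0.975 in CIC, and at 0.576 in 7, 0.497 in GFP-D, 0.347 in FUBP1-D, with 0.237 for CIC-D. All proliferating libraries lay above all differentiating ones. Dlx1 fell by 0.87 log2 units (SE 0.23, limma adjusted p = 0.0214), from 1.64 ± 0.649 to 0.414 ± 0.152 FPKM (SD, n = 4 and 4). It passed the filter through the proliferating libraries alone. The call was lost when TRC, FUBP1, CIC, FUBP1-D or CIC-D was left out (adjusted p from 0.0512 to 0.0995), with group means (0.0703) and with libraries of the same name as a block, a fit that drops TRC and 7 (limma adjusted p = 0.0514). The annotation holds an antisense gene, Dlx1as, over Dlx1, and whether the counting used strand is not given, so reads of both cannot be told apart.

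Dlx2, the neighbouring gene on the other strand (chromosome 2, 71381465 to 71384811), reached 1 FPKM in 1 library only, CIC (1.31), and did not pass the filter. It stood at 0.746 FPKM in TRC, 0.326 in GFP and 0.828 in FUBP1, then at 0.646 in 7, 0.292 in GFP-D, 0.181 in FUBP1-D, with 0.303 for CIC-D. The 2 states overlapped. Fitted without the filter, over 16724 rows, its log2 difference was -0.39 (SE 0.18, limma adjusted p = 0.167). The related genes Dlx5 and Dlx6, which act with them in interneurons, were listed at 0 in all 8 libraries.

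Of the cytoskeletal members, Tubb3 and Dcx were at most 0.235 FPKM in the 4 proliferating libraries. Tubb3 (chromosome 8, 125935464 to 125945910), the class III beta-tubulin used as a marker of neurons, was at 0.0204 FPKM in TRC, 0.232 in GFP, 0.235 in FUBP1 and 0.0588 in CIC. It was at 0.500 in 7, 3.68 in GFP-D, 2.70 in FUBP1-D, with 0.787 for CIC-D. The states did not overlap, but only GFP-D and FUBP1-D exceeded 1 FPKM. Tubb3 rose by 1.20 log2 units (SE 0.37, limma adjusted p = 0.0385), from 0.137 ± 0.113 to 1.92 ± 1.53 FPKM (SD, n = 4 and 4). It passed the filter through the differentiating libraries alone. Without TRC, GFP, FUBP1, CIC or CIC-D the adjusted p lay between 0.0617 and 0.132, without GFP-D or FUBP1-D the gene failed the filter, and the adjusted p was 0.0913 with quantile normalization, 0.112 with group means, 0.0651 with a pseudocount of 5 and 0.0621 without the filter. The annotation also holds Gm20388, a protein-coding gene that overlaps Tubb3 on the same strand, so reads may be split between them.

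Dcx (chromosome X, 140290385 to 140367762), which encodes the microtubule protein doublecortin of migrating neurons, was listed at 0 in GFP, CIC and CIC-D. The other values were 0.00462 FPKM in TRC, 0.00490 in FUBP1, 0.0117 in 7, 0.0105 in GFP-D and 0.0752 in FUBP1-D. Its mean over the libraries exceeded that of 27.0% of all rows, which include the rows at 0 throughout. Fitted without the filter, its log2 difference was 0.03 (SE 0.02, limma adjusted p = 0.329).

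Stmn2 (chromosome 3, 8509527 to 8561604), a tubulin-binding stathmin of growing axons, was detected unevenly. It was at 0.488 FPKM in TRC, 5.10 in GFP, 0.191 in FUBP1, 1.62 in 7, 1.18 in GFP-D and 10.8 in FUBP1-D, and it was listed at 0 in both CIC and CIC-D. Its highest proliferating value belonged to GFP and its highest differentiating value to FUBP1-D, so neither the state nor 1 target label ordered the libraries. The state difference was 0.66 (SE 0.70, limma adjusted p = 0.476) and changed sign without FUBP1 or FUBP1-D (-0.22 for each) and without TRC and FUBP1 together (-0.77).

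Nefl and Gap43 were abundant in some proliferating libraries and almost missing in others. Nefl (chromosome 14, 68701941 to 68705794), the light chain of neurofilaments, was at 537 FPKM in TRC and 206 in FUBP1 but at 13.1 in GFP and 1.25 in CIC, a 431-fold range within 1 state. In the differentiating state it was at 7.40 FPKM in 7, 0.940 in GFP-D, 13.7 in FUBP1-D, with 1.25 for CIC-D. The CIC libraries held the same low level in both states. The 2 NT libraries differed 41.1-fold while proliferating, and the log2 state difference of -3.17 (SE 1.24) did not pass the test (limma adjusted p = 0.0784). It passed with libraries of the same name as a block, without TRC and 7 (log2 difference -2.22, limma adjusted p = 0.0378) and without GFP (-3.97, 0.0470). Without TRC and FUBP1 it was -1.03 (adjusted p = 0.367).

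Nefm, the medium chain that assembles with NEFL, followed the same order of libraries in the proliferating state. It was at 106 FPKM in TRC, 44.2 in FUBP1, 2.35 in GFP and 1.04 in CIC, and at 0.893 to 3.72 FPKM in the differentiating libraries. Over the 8 libraries the log2 levels of both chains correlated at r = 0.97, a description over points that share libraries. Nefm and Nefl overlap on opposite strands in the GENCODE M21 annotation but occupy separate loci in the table. Nefh, the heavy chain, did not exceed 0.0123 FPKM, and Ina, a further neurofilament subunit, did not exceed 0.393.

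Gap43 (chromosome 16, 42248674 to 42340764), the growth cone protein, was highest among the proliferating libraries in CIC, where Nefl was lowest among them. It was at 250.5 FPKM in CIC, 30.6 in FUBP1, 8.14 in GFP and 2.68 in TRC. The CIC value was 8.19 times that of FUBP1, 30.8 times that of GFP and 93.3 times that of TRC. In the differentiating state it was highest in CIC-D too, at 4.13 FPKM, against 1.28 in 7, 0.273 in GFP-D and 1.39 in FUBP1-D. Gap43 fell with the state by 3.22 log2 units (SE 0.67, limma adjusted p = 0.00955), from 73.0 ± 119 to 1.77 ± 1.65 FPKM (SD, n = 4 and 4). The states overlapped, because TRC lay below CIC-D. Between libraries of the same name the log2 level differed by -2.84 in GFP, -3.72 in FUBP1 and -5.62 in CIC. Without the 2 CIC libraries the gene was still called, as in every alternative run (largest adjusted p = 0.0433).

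The secretory genes held the strongest changes in both directions. Nsg2 (chromosome 11, 31900459 to 31959202), an endosomal protein of neurons that takes part in receptor trafficking, was at 2.53 FPKM in TRC, 3.68 in GFP, 5.10 in FUBP1 and 3.78 in CIC. It was at 46.8 in 7, 87.0 in GFP-D, 57.0 in FUBP1-D, with 42.1 for CIC-D. The lowest differentiating value was 8.25 times the highest proliferating one. Nsg2 rose by 3.60 log2 units (SE 0.27, limma adjusted p = 5.8e-04), from 3.77 ± 1.05 to 58.2 ± 20.2 FPKM (SD, n = 4 and 4), and was the 33rd largest increase among the tested rows. Its spread was narrow, with a 2.01-fold range in proliferating and 2.07-fold in differentiating libraries. The family member Nsg1 stood at 16.7 to 33.7 FPKM in all libraries, with a log2 difference of -0.0043 (SE 0.20, limma adjusted p = 0.988).

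Scg3 (chromosome 9, 75491173 to 75531863), a granin that helps to load dense-core granules, was high in 3 of the 4 differentiating libraries. It was at 3.72 FPKM in TRC, 0.637 in GFP, 4.21 in FUBP1 and 0.721 in CIC, then at 22.2 in 7, 39.0 in GFP-D and 52.7 in FUBP1-D, but at 1.51 in CIC-D. CIC-D thus lay 14.7-fold below 7, 25.8-fold below GFP-D and 34.8-fold below FUBP1-D, and within the range of the proliferating libraries. The state change was 2.71 (SE 0.58, limma adjusted p = 0.0104), from 2.32 ± 1.91 to 28.9 ± 22.1 FPKM (SD, n = 4 and 4), and 3.43 (adjusted p = 0.00689) without the CIC libraries. Without TRC and FUBP1 it was 2.65 and no longer called (limma adjusted p = 0.0888). Of the other granins, Scg2, Chga and Chgb did not exceed 0.381, 0.0815 and 0.315 FPKM.

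Nptx1 (chromosome 11, 119400033 to 119409134), a secreted pentraxin that clusters glutamate receptors, was among the most abundant members of the proliferating state. It was at 256 FPKM in TRC, 135 in GFP, 193 in FUBP1 and 35.1 in CIC, and at 3.16 in 7, 0.624 in GFP-D, 2.92 in FUBP1-D, with 0.901 for CIC-D. The lowest proliferating value was 11.1 times the highest differentiating one. Nptx1 fell by 5.55 log2 units (SE 0.44, limma adjusted p = 5.8e-04), from 155 ± 93.7 to 1.90 ± 1.32 FPKM (SD, n = 4 and 4). It was the second largest decrease of all 11968 rows. Its receptor Nptxr fell as well, from 11.2 ± 11.1 to 0.305 ± 0.278 FPKM (log2 change -2.49, SE 0.69, limma adjusted p = 0.0261), and like Nefl it was high in TRC (24.9 FPKM) and FUBP1 (15.2), lower in GFP (4.45) and lowest in CIC (0.187). Nptxr passed the filter through the proliferating libraries alone, as it did not exceed 0.696 FPKM in any differentiating one. The related pentraxin Nptx2 did not exceed 0.0144 FPKM.

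**Figure D2:**
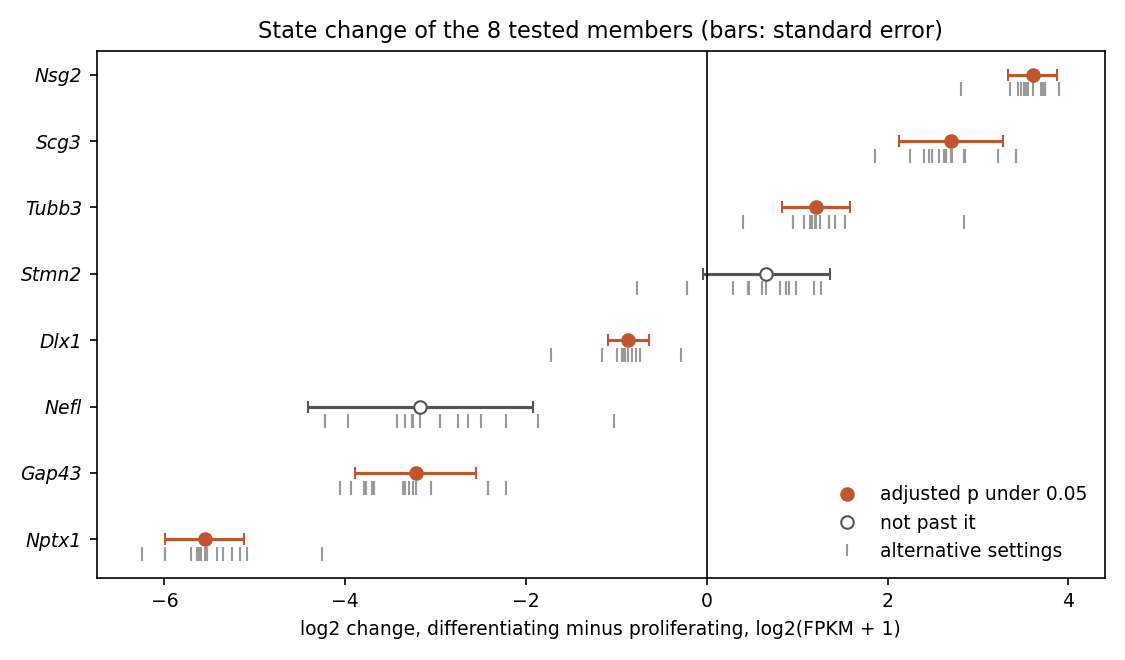
Log2 change between states (differentiating minus proliferating) of the 8 tested members in the additive fit, with standard errors as bars and 1 grey tick for each alternative setting. Filled points passed an adjusted p of 0.05, and the ticks of Stmn2 alone lie on both sides of 0, from -0.77 to 1.27.

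Between the NT libraries alone, the same 2 secretory genes stood out. In a fit of 6 group means, with the spread taken from the NT pairs, Nsg2 rose by 3.99 (SE 0.39) and Nptx1 fell by 6.17 log2 units (SE 0.56), with limma adjusted p = 0.0435 for each. They were the 2 members called of 8, against 1.46% of all tested rows (0.577% higher and 0.886% lower). Nptx1 had the largest decrease of all rows in this contrast. The other estimates pointed the same way as across arms for Scg3 (3.46, limma adjusted p = 0.0578), Nefl (-4.43, 0.190), Gap43 (-1.77, 0.134), Dlx1 (-0.77, 0.264) and Tubb3 (1.24, 0.265). Stmn2 had the other sign (-0.34, limma adjusted p = 0.784). Neither Nsg2 nor Nptx1 was called when TRC, 7 or GFP-D was left out, and no row was then called in the whole table.

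With the CIC label, Gap43 was higher and Scg3, Nefl and Nptx1 lower than in the NT libraries, yet none of the 8 tested members passed the test. Gap43 had a log2 difference of 3.51 (SE 0.82, limma adjusted p = 0.239), the sixth largest of all rows. Scg3 differed by -2.15 (SE 0.71, limma adjusted p = 0.350), Nefl by -3.06 (SE 1.52, adjusted p = 0.477), Nptx1 by -1.41 (SE 0.54, adjusted p = 0.405) and Stmn2 by -1.42 (SE 0.86, adjusted p = 0.542). Of these, Gap43, Scg3 and Nptx1 had an unadjusted p under 0.05, as did 1368 of all 11968 rows. By adjusted p, 0.109% of all rows were called (0.0167% higher and 0.0919% lower). Dlx1, Tubb3 and Nsg2 differed by less than 0.36 in size. In the proliferating state Nptx1 and Nefl were lower in CIC than in both NT libraries, and in the differentiating state Scg3 was. Of the 8 astrocyte markers in the differentiating libraries, Gfap (5.10 FPKM against 31.9 to 67.9 in the others), Aldh1l1 (17.6 against 47.3 to 328) and Aqp4 (72.0 FPKM) were lowest in CIC-D. Slc1a3 (477 FPKM) and S100b (2.08 FPKM) were highest there, Slc1a2 and Aldoc lay between the other libraries, and Gjb6 was listed at 0. The list summed to 626 FPKM in CIC-D and to 683 to 893 FPKM in the others. Their part in the Scg3 level was not tested.

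Whether the state change itself differed between the CIC arm and NT was tested as an interaction, and no member was called. The estimates were -3.85 for Gap43 (SE 0.96), -2.91 for Scg3 (SE 1.03), 4.43 for Nefl (SE 3.03) and 1.92 for Nptx1 (SE 0.97), all at a limma adjusted p of 0.998. Gap43 and Scg3 had an unadjusted p under 0.05, and 0% of rows were called (512 rows had an unadjusted p under 0.05). The interaction rests on 1 library per CIC state, which was assumed to vary like the NT libraries.

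With the FUBP1 label all 8 tested members had positive estimates, from 0.06 (Dlx1) to 1.56 (Nefl), but none was called (limma adjusted p = 0.999 for each, 0% of rows called, no member and 256 rows at an unadjusted p under 0.05). The median of the 8 was 0.40, beside 0.02 over all rows, of which 53.6% had positive estimates. Without GFP, the NT library with the lowest Fubp1, 7 of 8 were positive and Dlx1 was at -0.06. In FUBP1-D, Stmn2 (10.8 FPKM) was 6.69 times its level in 7 and 9.21 times that in GFP-D. Stmn2 also had the second largest positive interaction with state of all rows (3.65, SE 1.23, unadjusted p = 0.0289), at a limma adjusted p of 1.00 in which no row was called (0%).

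The wider set of neuronal genes was then examined through 4 lists by role, of 103 distinct genes of which 101 were in the table. In 35 of these every library stayed below 1 FPKM, which is 34.7%, beside 40.4% of all rows. Of the 63 that could be tested, 18 rose and 4 fell with the state, with a median log2 change of 0.48, beside 21.2% higher, 17.7% lower and a median of 0.09 over all rows. Among fate factors, 3 rose and 2 fell of 11 tested, near those shares of all rows. Pou3f2, a POU-domain factor (7.90 to 13.4 FPKM in the proliferating and 18.6 to 32.9 FPKM in the differentiating libraries, limma adjusted p = 0.0118), and Meis2 were among the higher, and Sox11 and Pbx3 were lower. Meis2 was no longer called with quantile normalization or the median of ratios (adjusted p = 0.0902 and 0.0625). The 2 most abundant fate factors, Sox4 and Pou3f3, had log2 differences of 0.89 (limma adjusted p = 0.0546, and 0.0294 with quantile normalization) and -0.02 (0.963). The proneural factors Neurog1 and Neurog2 and the neuronal factors Neurod2 and Tbr1 stayed below 0.184 FPKM.

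Cytoskeletal genes rose in 8 and fell in 1 of 24 tested (11 and 1 with quantile normalization, 7 and 2 with the median of ratios), beside 21.2% and 17.7% of all rows. Among the called genes the largest increases were those of Dpysl4 (from 2.85 ± 3.47 to 13.7 ± 10.9 FPKM, SD, n = 4 and 4), Mapt, which encodes tau (from 12.3 ± 15.0 to 27.6 ± 11.4), and Dpysl5 (from 4.79 ± 1.24 to 17.3 ± 9.20). Mapt was at 34.3 FPKM in CIC, near its differentiating levels, and its adjusted p rose from 0.0450 to 0.0534 with the median of ratios. Stmn1, a stathmin of dividing cells, fell from 225 ± 75.3 to 36.7 ± 16.3 FPKM. The 2 most abundant, Tuba1a and Marcksl1, had log2 differences of 0.50 and 0.40 (limma adjusted p = 0.298 and 0.155). Of granule and vesicle genes, 5 rose, a share near the 21.2% of all rows, and 1 fell of 19. Those that rose included Syn2 (from 9.24 ± 3.08 to 47.4 ± 9.44 FPKM) and Cpe, a processing enzyme of granules (4286 FPKM in GFP-D and 434 in CIC-D, not called with the median of ratios, limma adjusted p = 0.0605). Syt11, the second most abundant, rose as well, and the member that fell was Nptxr. Of neuronal RNA-binding proteins 2 rose of 9, Msi1 and Nova2 (the latter at an adjusted p of 0.0882 with quantile normalization), and Ptbp2 was at 14.1 to 33.6 FPKM (log2 difference 0.13, limma adjusted p = 0.671).

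**Figure D3:**
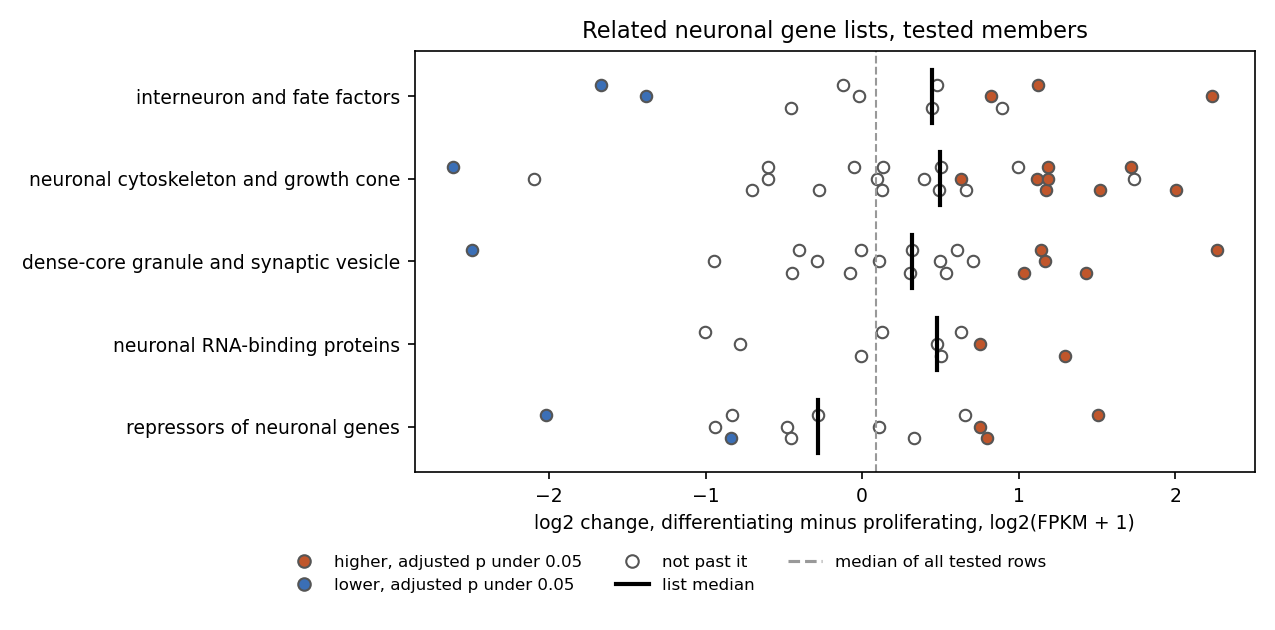
Log2 change between states of each tested gene in 4 lists of other neuronal genes and in a list drawn up as their repressors. Called genes are filled, black bars mark list medians and a dashed line marks the median of all tested rows. The 4 neuronal medians lie between 0.32 and 0.50, beside 0.09 over all rows. That of the repressor list lies at -0.28, the value of Hes6. With quantile normalization the medians were 0.31 (fate), 0.68 (cytoskeletal), 0.13 (granule) and 0.24 (RNA-binding), beside -0.0022 over all rows.

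Most markers of mature neurons were almost missing. Of 8 markers, 6 stayed below 1 FPKM in every library: Slc17a6 was listed at 0 throughout, Rbfox3, which encodes NeuN, reached 0.0096, Nefh 0.0123, Snap25 0.230, Syt1 0.526 and Slc17a7 0.700. Syn1 was at 0.531 to 2.50 FPKM. Map2 made up most of the list at 27.6 to 58.5 FPKM and did not pass the state test (log2 difference 0.09, SE 0.28, limma adjusted p = 0.816). The list summed to 30.5 to 60.8 FPKM in proliferating and 38.2 to 59.4 in differentiating libraries. Among the members, Dlx1, Dlx2, Tubb3 and Dcx reached at most 3.68 FPKM and Stmn2 10.8. Scg3, Nsg2, Gap43, Nptx1 and Nefl reached 52.7 to 537 FPKM. Reads of Tubb3 may be split with Gm20388. The name of the set describes the genes and not the cells, and which cells expressed them was not tested.

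The summed level of the astrocyte markers was higher in every differentiating library than in any proliferating one. The 8 genes summed to 156 to 262 FPKM in the proliferating and 626 to 893 FPKM in the differentiating libraries, and 4 of the 7 tested rose, beside 21.2% of all rows, none fell and Gjb6 was listed at 0 throughout. The most abundant were Slc1a3, a glutamate transporter that rose, and Aldh1l1, which did not pass the test (limma adjusted p = 0.0641). Aldoc and S100b did not pass it either. Neural progenitor markers summed to 3399 to 5047 FPKM and 2908 to 4559 FPKM, with 2 of 8 called higher and 1 lower, and the most abundant were Vim, which did not pass the test, and Fabp7, which fell. Msi1 stands in this list and in that of RNA-binding proteins. Oligodendrocyte lineage markers summed to 717 to 1485 and 536 to 1136 FPKM, with 2 of 7 called higher and 2 lower, and the most abundant, Olig1 and Olig2, were among the lower (Olig1 not with quantile normalization, limma adjusted p = 0.314). Microglia markers summed to at most 1.69 FPKM, led by P2ry12 and Aif1, and endocrine markers to at most 0.681 FPKM, led by Chgb and Pomc. The part of these cell types in the members' changes was not tested.

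**Figure D4:**
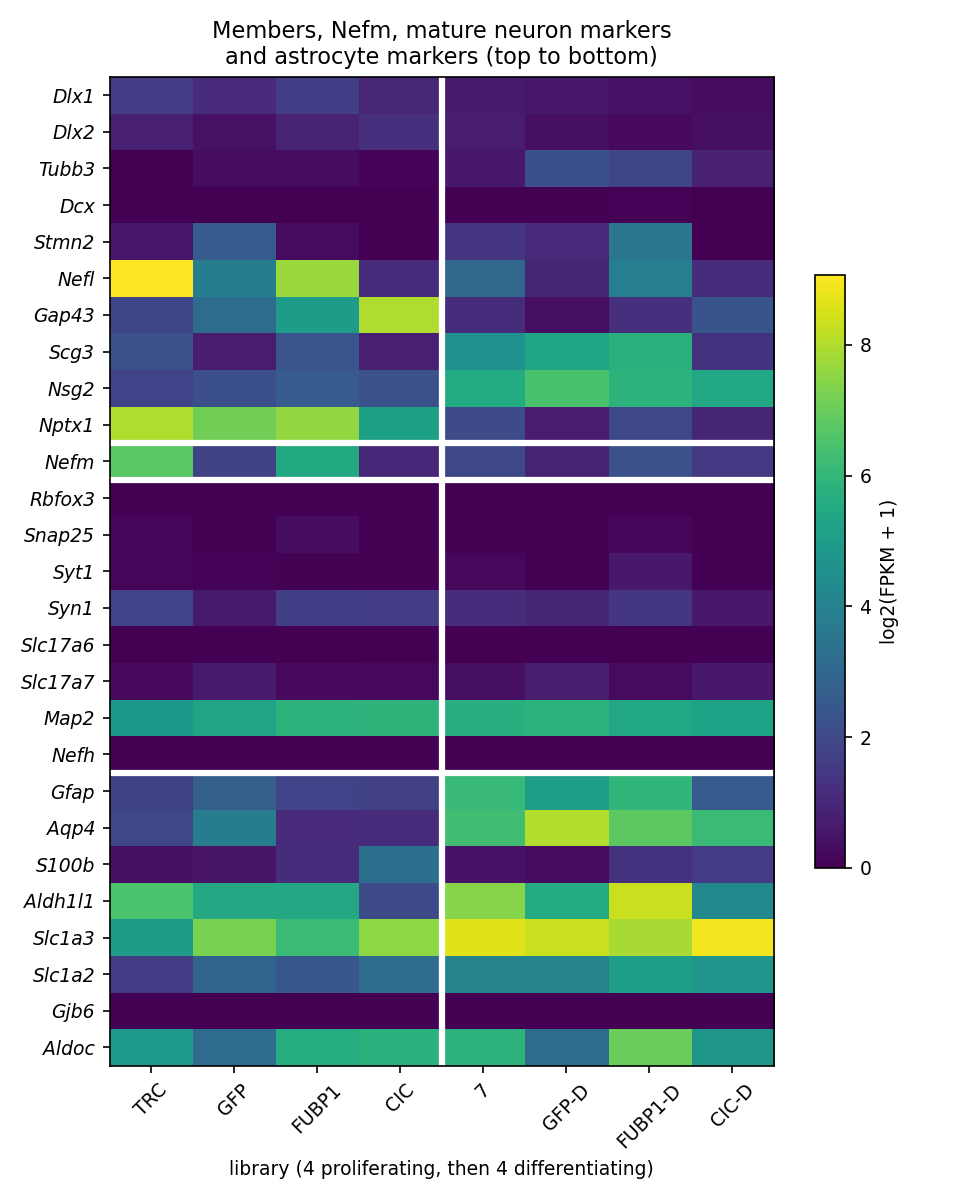
Levels as log2(FPKM + 1) of the 10 genes, Nefm, 8 mature neuron markers and 8 astrocyte markers (rows, top to bottom) in the 8 libraries (columns, proliferating left of the white line). Nefl and Nefm share their high levels in TRC and FUBP1, Gap43 peaks in CIC at 250.5 FPKM, and the mature neuron rows other than Map2 and Syn1 stay below 1 FPKM.

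The rows most like each tested member over the 8 libraries, by the Pearson correlation of log2(FPKM + 1), differed from member to member. These correlations describe 8 points that share libraries and state. Nptx1 was most like Gins4 and Mcm6, which encode DNA replication factors, and the ribosomal protein gene Rps26 (r from 0.99 to 1.00). Dlx1 was most like Haus6, a spindle gene, Larp4 and Tmpo (r = 0.99 for each), and Nsg2 most like 1700020D05Rik, Ap3m2 and Tacc1 (r = 0.99 for each). Tubb3 went with Gpr179, Crtc3 and C1rl, Nefl with Kif24, Tfb1m and the chemokine gene Cxcl14, and Gap43 with Zbtb7c, Moxd1 and Car6 (r from 0.96 to 0.99 for these 3 members). Moxd1 and Car6 shared the order of Gap43 in the proliferating state, with 19.1 and 18.1 FPKM in CIC against 0.356 and 0.342 in TRC. Scg3 was most like Glo1, Rreb1 and Mtor (r = 0.97 for each) and Stmn2 like Supt7l, Tbck and Sec22a (r from 0.91 to 0.98). Among the members themselves, Nptx1 and Dlx1 were the most alike (r = 0.94) and Nsg2 and Nptx1 the most opposed (r = -0.95). Nefl and Gap43 had an r of -0.02 over the 8 libraries of both states. Among the proliferating libraries, however, Gap43 was highest in CIC, where Nefl was lowest.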

How the data were processed

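The authors deposited 1 table of FPKM values for 8 libraries (values not whole, with library sums of 426984 to 541608). The submitters' processing notes name Cufflinks 2.1.1, TopHat2 2.0.11, bcl2fastq 2.17 and cutadapt, with build mm9. The unit was read from these tools and the values. Their order and settings, the annotation and the use of strand were not given in the sources used here. Loci are the table's, counted from 1. Strands and overlaps come from GENCODE M21 and promoters from RefSeq, both on GRCm38, with no coordinates carried between builds.

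Rows that reached 1 FPKM in at least 2 libraries were tested as log2(FPKM + 1) with limma 3.58.1 (R 4.3.3), using a trended empirical Bayes fit (two-sided, Benjamini-Hochberg over 11968 rows). The additive model left 4 residual degrees of freedom and the 6 group means 2. The script was tested on simulated data. The members, lists and tests were chosen with earlier results of these data known. From each neuronal list the text names up to 3 called genes with the largest change in each direction and the 2 of highest mean, from other lists the 2 of highest mean, and per tested member the 3 most correlated rows. Some genes under this rule are not reported here. Genes beyond these (Neurog1, Nsg1, Nefm and others) were chosen after their values were seen, as relatives of members or markers.

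Libraries that share a name across states deviated together after centring each state: r = 0.54 for GFP, 0.42 for FUBP1 and 0.41 for CIC, against -0.34 to -0.11 for other combinations of these names. Combinations with TRC or 7, which share no name, are not among them. Over the tested rows TRC was more like FUBP1 (r = 0.98) than like GFP, the other proliferating NT library (r = 0.91). GFP and GFP-D also carry the same replicate number, so the r values across states cannot decide between the names and the labels' numbering. The FUBP1 and the CIC libraries share a target label across states as well, and its part in their r values was not tested. The pairing across states was taken from the names. The alternatives were other pseudocounts (0.1 and 5), no filter, quantile normalization, the median of ratios, group means, that pairing, the NT libraries alone and leaving libraries out.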

Additional observations from a re-analysis of the deposited data

Results flagged for a closer look

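A library was set apart when its gap to the nearest other of the 4 in its state, divided by their range, exceeded Dixon's critical value for 4 values. Of 20 such groups, 4 had one. The critical value stands for about 5% of groups only where the values are replicates with a normal spread. The gaps were taken on FPKM and not on the log2 scale of the tests. The count can therefore not be read against that share. Gap43 in CIC stood at 250.5 FPKM, next to 30.6 FPKM in the proliferating library nearest to it. Stmn2 in GFP stood at 5.10 FPKM, next to 0.488, and in FUBP1-D at 10.8 FPKM, next to 1.62. Dcx in FUBP1-D stood at 0.0752 FPKM, next to 0.0117, a level at which few fragments decide the value. The 4 libraries of a state carry 3 target labels, so these are not spreads between replicates.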

How the results depend on the processing

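The count of members called between states was 6 and lay between 4 and 6 under the other pseudocounts, filters, scalings and designs, among them 4 to 6 when single libraries were left out. It was 4 without both CIC libraries and 3 without TRC and FUBP1 together, 2 alternatives chosen after seeing the data. Nsg2, Nptx1 and Gap43 were called in all 17 alternatives and Scg3 in 16, with log2 changes of 2.81 to 3.89, -6.24 to -4.26, -4.06 to -2.22 and 1.86 to 3.43. Dlx1 was called in 8 of 16 and Tubb3 in 4 of 15. Over all rows the count was 4647, with 2906 by group means, 2482 to 4863 without single libraries and 1392 without TRC and FUBP1. The replicate block on the shared library name, which drops TRC and 7, called 6 members, lost Dlx1 (log2 change -0.83), gained Nefl (-2.22) and changed no other call. In the NT contrast 2 members were called, 0 with a pseudocount of 5, 0 without the filter, and 0 to 2 when single libraries were left out. Over all rows this contrast called 175, 277 with quantile normalization, 480 without GFP and 0 with a pseudocount of 5, without the filter, or without TRC, 7 or GFP-D. No member was called for either target label or its interaction with state in any alternative. No depth was given, so no counting error stands behind levels such as those of Dcx.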

Other observations

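A list of 15 genes drawn up as repressors of neuronal expression was measured, and 13 of them could be tested. It includes Hes6, which opposes Hes1 rather than acting as such a repressor. The list median given here is the value of Hes6 (-0.28). With the differentiating state 3 rose and 2 fell (3 and 4 with the median of ratios), with a median log2 change of -0.28, beside 21.2% higher, 17.7% lower and a median of 0.09 over all rows. Sox9, a glial and progenitor factor, rose from 31.4 ± 6.55 to 90.5 ± 15.3 FPKM (SD, n = 4 and 4), as did Hey1, a Notch effector, and Nfia, a gliogenic factor. Hes1, a Notch effector that represses proneural genes, fell from 33.8 ± 18.2 to 7.02 ± 2.49 FPKM, and Rcor1, a corepressor of REST, from 17.9 ± 3.80 to 9.46 ± 1.53. Rest itself, which represses neuronal genes in other cells, was at 8.43 ± 0.745 and 10.9 ± 1.26 FPKM (log2 difference 0.33, SE 0.16, limma adjusted p = 0.136). Ptbp1, a splicing repressor of neuronal exons and the most abundant of the list, was at 158 ± 53.2 and 85.5 ± 17.0 FPKM (log2 difference -0.83, limma adjusted p = 0.0608, and 0.0451 with the median of ratios). Id3, the next most abundant, was at 64.6 ± 64.7 and 84.5 ± 43.2 FPKM (adjusted p = 0.228).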
